A study of Homo sapiens with 8 samples.

Results

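The mitochondrial ribosomal protein genes are the nuclear genes whose symbols begin with MRPL, for proteins of the large subunit of the mitochondrial ribosome, or MRPS, for proteins of its small subunit. They were taken from the count tables by symbol, as MRPL or MRPS followed by digits and at most 1 letter, and each gene was represented by its counted transcript of the largest span. This gave 76 of 19351 gene names, 47 MRPL and 29 MRPS genes, on 21 chromosomes. These 76 genes are called members here. All 76 passed the filter on low counts, as did 17782 of the 19351 names.

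Mitochondrial ribosomes translate the few proteins encoded by mitochondrial DNA, which are core subunits of the respiratory chain and of ATP synthase. Their ribosomal RNAs are made inside the organelle, while every one of their proteins is encoded in the nucleus, translated in the cytosol and imported. Many of these proteins have a bacterial counterpart, and others are found only in mitochondrial ribosomes. The genes are housekeeping genes scattered over the genome, most of them short, so that a polymerase released at the start site needs little time to reach the end of most of them and much longer for the few long ones.

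GRO-seq was used to measure nascent RNA: engaged RNA polymerases extend their transcripts in isolated nuclei with a labelled nucleotide. RNA that carries the label from this run-on is pulled down and sequenced. The cells were SV40-immortalized fibroblasts of human fetal lung (labelled MRC5, and called MRC5_VA by the study), either carrying a lentiviral shRNA against the lncRNA *ZFAS1* (KD) or wild type (WT). All of them were kept for 3.5 h in 100 µM DRB, which keeps polymerases from leaving the region of the start site, were then irradiated with 10 J/m2 of UV-C (UV) or left unirradiated (no UV), and were collected 40 or 10 min after DRB was removed, for a run-on of 5 min. The 8 groups were KD UV 40 min, KD UV 10 min, KD no UV 40 min, KD no UV 10 min, WT UV 40 min, WT UV 10 min, WT no UV 40 min and WT no UV 10 min, with 1 library each. No condition was repeated and nothing in the labels tells of separate cultures, so p-values measure only the spread between these libraries, which may be technical.

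Reads per library, summed over genes, numbered 10.2 to 21.1 M, of which the members took 0.158 to 0.215%. Levels are given as CPM, counts per M reads of a library, with library sizes scaled by TMM (trimmed mean of M values). A gene is said to be called where edgeR's quasi-likelihood test gave a Benjamini-Hochberg adjusted p under 0.05 over all 17782 genes tested, and the share of all genes called the same way stands beside each first count. In bulk nuclei, fewer cells that transcribe a gene and less nascent RNA per cell cannot be told apart. *ZFAS1* itself was at 507 to 1812 CPM, and since an shRNA acts on finished RNA its nascent reads are no check of the knockdown. None of the 10 fibroblast, 5 epithelial, 4 endothelial or 4 immune markers was at 0 in any library, and 1 of the 4 muscle markers was. The summed level was 1538 to 5526 CPM for the fibroblast markers, of which *FN1* alone had 463 to 2755 CPM. It was 31.5 to 40.1 CPM for the epithelial, 61.5 to 305 for the endothelial, 11.1 to 24.8 for the immune and 2.79 to 17.1 CPM for the muscle markers. Per kb of span the median was 2.48 CPM for the fibroblast markers, against 0.213, 0.283, 0.429 and 0.176 CPM in the other lists, in the same order. The deposited tables came in 2 orders of transcripts, one for the WT no UV and KD UV libraries and another for the WT UV and KD no UV libraries, so that whatever set these libraries apart cannot be told apart from a difference of KD over WT that depends on UV. The read density between signals, taken as the 10th percentile of reads per kb over genes of at least 20 kb, was 0.0456 to 0.114 reads per kb per M reads in the first set and 0.0915 to 0.159 in the second.

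The promoters show what these genes have in common at their start sites. RefSeq windows of 300 bases, from 250 bases before to 50 bases after the start on GRCh38.p14, were given for 67 members, and in 65 of these the start lay within 1 kb of that of the counted transcript. The ETS core CCGGAAG was held by 28 of the 67 windows (41.8%) on either strand, beside 10.7% of all 27305 promoter windows of the same length. The YY1 core AAGATGGCG was held by 13 (19.4%, beside 1.85%), and the NRF1 core GCGCATGC by 6 (8.96%, beside 3.27%). In all, 38 windows held at least 1 of the 3, and a TATA box, TATAAA, was found in 2 (2.99%, beside 12% of all windows). The ETS core ends in the letters AAG, with which the YY1 core begins, so the same stretch can count for both. Both cores were held by the *MRPL38*, *MRPL52*, *MRPS10* and *MRPS18A* windows and by no other member's window. Whether the cores overlap in these windows was not tested. A match is a description of the sequence and not a binding site.

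The following windows belong to 5 members on which the results turn, the long genes *MRPS9* and *MRPL1* with large differences between 40 and 10 min, *MRPS24* and *MRPL51* with large differences for KD by UV, and *MRPL57*, which had the opposite sign. Capitals mark a searched core, which in the *MRPS24* window is the YY1 core from base 19 after the start and in the *MRPL51* window the ETS core once on each strand. The *MRPS9*, *MRPL1* and *MRPL57* windows held none of the searched letters.
MRPS9 promoter, chr2:105037819-105038118, plus strand: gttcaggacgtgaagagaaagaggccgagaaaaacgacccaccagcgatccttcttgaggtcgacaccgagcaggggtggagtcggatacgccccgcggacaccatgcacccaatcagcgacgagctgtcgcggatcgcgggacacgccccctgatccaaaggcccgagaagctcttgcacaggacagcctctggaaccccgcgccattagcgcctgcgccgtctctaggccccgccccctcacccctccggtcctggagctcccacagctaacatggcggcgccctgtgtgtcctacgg
MRPL1 promoter, chr4:77862580-77862879, plus strand: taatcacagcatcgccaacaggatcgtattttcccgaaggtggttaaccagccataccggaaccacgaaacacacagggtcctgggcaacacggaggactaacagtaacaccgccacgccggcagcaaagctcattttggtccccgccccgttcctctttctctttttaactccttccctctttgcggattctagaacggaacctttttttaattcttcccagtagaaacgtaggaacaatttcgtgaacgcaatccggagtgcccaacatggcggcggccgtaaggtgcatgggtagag
MRPS24 promoter, chr7:43869468-43869767, minus strand: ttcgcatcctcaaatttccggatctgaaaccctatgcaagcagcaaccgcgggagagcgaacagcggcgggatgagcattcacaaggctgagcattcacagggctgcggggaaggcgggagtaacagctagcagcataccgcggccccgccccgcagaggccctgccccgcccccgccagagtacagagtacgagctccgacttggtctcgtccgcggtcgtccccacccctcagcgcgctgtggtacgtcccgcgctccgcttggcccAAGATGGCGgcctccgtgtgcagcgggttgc
MRPL51 promoter, chr12:6493213-6493512, minus strand: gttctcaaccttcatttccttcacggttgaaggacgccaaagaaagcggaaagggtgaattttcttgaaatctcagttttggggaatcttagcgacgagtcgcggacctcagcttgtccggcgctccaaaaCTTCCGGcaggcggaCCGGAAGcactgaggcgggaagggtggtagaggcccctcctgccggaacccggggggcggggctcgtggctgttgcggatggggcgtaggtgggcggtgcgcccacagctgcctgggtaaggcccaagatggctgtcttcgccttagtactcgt
MRPL57 promoter, chr13:21176408-21176707, plus strand: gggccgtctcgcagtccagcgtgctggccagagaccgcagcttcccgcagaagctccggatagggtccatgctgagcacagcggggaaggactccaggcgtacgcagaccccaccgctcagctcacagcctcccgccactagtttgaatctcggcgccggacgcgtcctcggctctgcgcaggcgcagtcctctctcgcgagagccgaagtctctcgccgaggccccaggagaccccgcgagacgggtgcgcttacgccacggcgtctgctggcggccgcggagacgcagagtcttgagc

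Reads were counted over whole transcripts with their introns, and the spans of the members differed widely. The median was 8.63 kb, beside 27.5 kb over all genes tested, and 41 members lay under 10 kb, 22 between 10 and 30 kb and 13 at 30 kb or more. The smallest genes were *MRPL34*, which encodes a small protein of the large subunit with a bacterial counterpart (chr19:17305668-17306843, hg38), *MRPS34* (chr16:1771890-1773155) and *MRPL51* (chr12:6491886-6493262, 1.38 kb), both specific to mitochondria. The largest were *MRPS22* at 351 kb (chr3:139005806-139357046), *MRPS28* at 112 kb (chr8:79918717-80030259) and *MRPS27* at 101 kb (chr5:72219409-72320261). The counted transcript of *MRPS22*, a mitochondria-specific protein of the small subunit, reaches far beyond another counted transcript of the same gene of 13.0 kb, so its reads are mostly not those of the shorter one.

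Per kb of span, *MRPL12* had the highest mean level over the 8 libraries, 24.1 CPM per kb. It encodes the stalk protein that recruits translation factors in the large subunit. *MRPL30* followed with 7.76, *MRPL51* with 6.88, *MRPL33* with 5.95 and *MRPS16* with 4.36 CPM per kb, of which all but *MRPL51* have bacterial counterparts. The lowest were *MRPS18B* at 0.147, *MRPS22* at 0.237 and *MRPL48* at 0.26 CPM per kb. The mean level per gene ran from 1.26 to 286 CPM with a median of 11.8 CPM, and the lowest single value was 4 reads, for *MRPS18B* in the KD no UV 10 min library. The members' median density was 5.42 to 35.7 times the background density, and 0 to 8 members per library lay under 2 times it. Another gene overlapped more than 10% of the span of 7 members. On the same strand this was *MRPS6*, of which 47.1% is shared with *SLC5A3*, a transporter gene, and reads there cannot be assigned to either. On the other strand the overlap was 100% of *MRPS16*, 80.6% of *MRPL43*, 61.4% of *MRPS2*, 44.6% of *MRPS18C*, 22.2% of *MRPL38* and 14.1% of *MRPS12*, where reads can be assigned only if strand was used in counting, which the sources used here do not state.

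**Figure D1:**
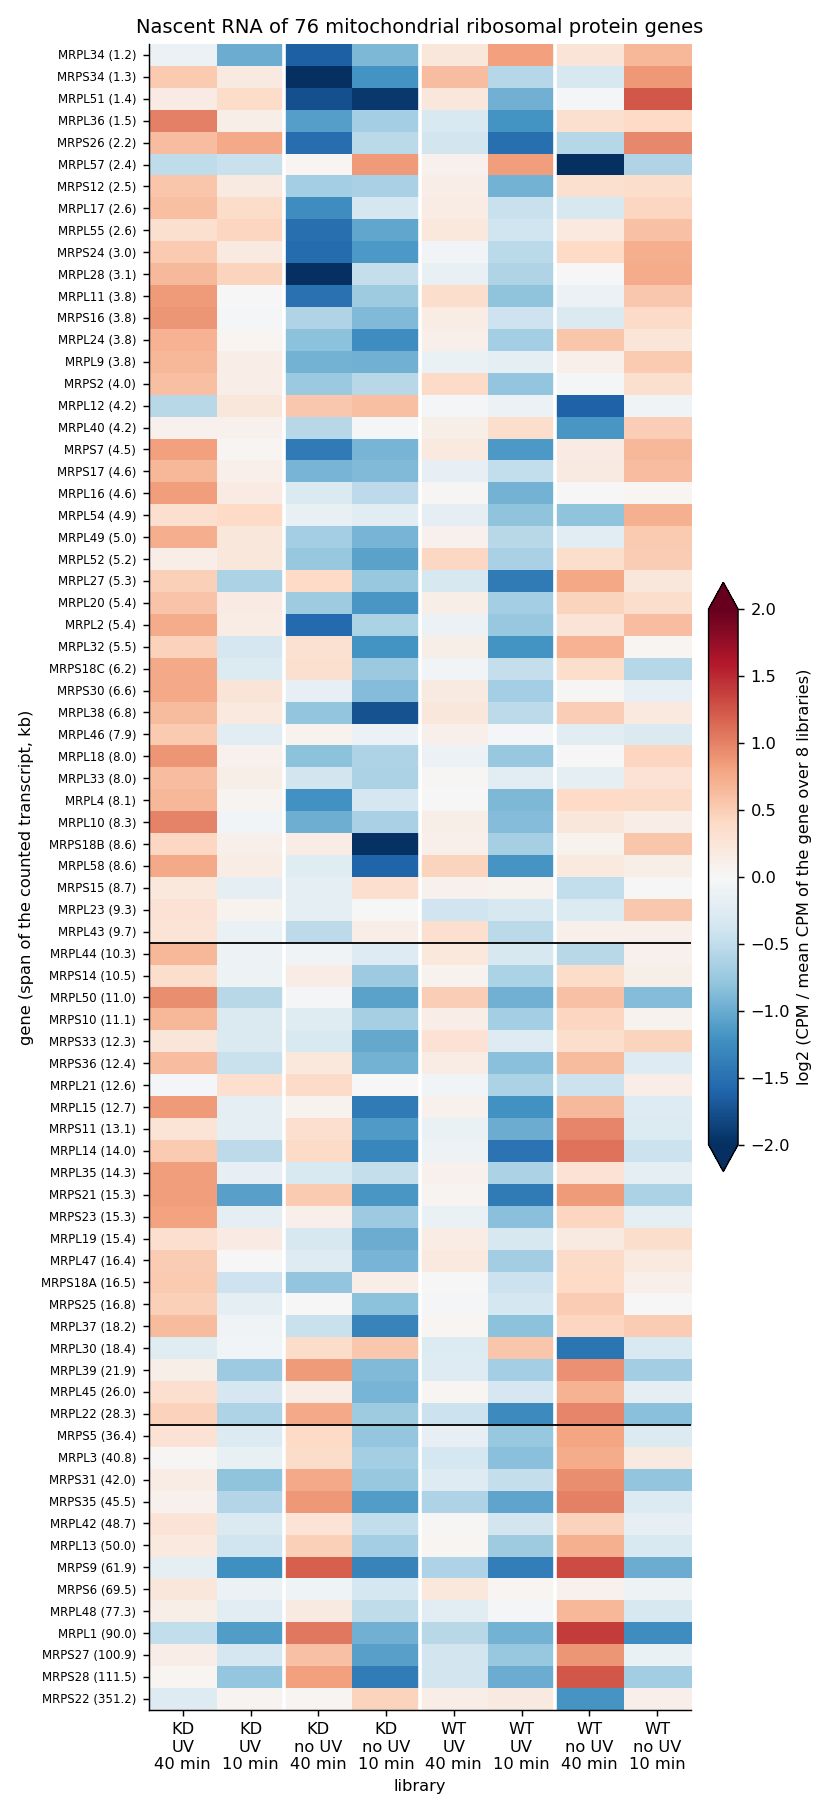
Nascent RNA of the 76 members in each of the 8 libraries, as the log2 ratio of CPM to the mean CPM of the gene over the libraries, with genes ordered by the span of the counted transcript (in kb, smallest at the top) and black lines at 10 and 30 kb. Most genes under 10 kb are low (blue) in both KD no UV libraries and high (red) in the KD UV 40 min library, while most genes of at least 30 kb are high in the 40 min libraries without UV.

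Setting 40 against 10 min compares the level of nascent reads over whole spans at the later and the earlier time after DRB removal. Movement of polymerases along the genes was not tested. Over all 4 matched pairs of libraries (KD and WT, with and without UV) 1 member rose by edgeR's quasi-likelihood test, *MRPS21*, beside 0.517% of all genes tested. *MRPS21* encodes a small protein of the small subunit with a bacterial counterpart (chr1:150293720-150308979, 15.3 kb). With UV it was at 24.4 CPM at 40 min against 6.44 CPM at 10 min in KD cells, and 14.2 against 5.12 CPM in WT cells. Without UV it was at 19.6 CPM at 40 min against 6.09 CPM at 10 min in KD cells, and 24.5 against 8.85 CPM in WT cells. All 4 libraries at 40 min lay above all 4 at 10 min, and the fitted log2 fold change was 1.65 ± 0.33 (SE, 4 of 4 pairs, edgeR adjusted p = 0.0478). A further 20 members had an unadjusted p under 0.05, beside 3890 of all 17782 genes tested, and DESeq2 called 13 members (9.25% of all genes). The edgeR call of *MRPS21* was lost without any one of 5 libraries, those of WT no UV, WT UV 10 min, KD no UV 10 min and KD UV 40 min. The count rose without the WT UV 40 min, the KD no UV 40 min or the KD UV 10 min library. Such a rise does not tell whether the members or all genes moved.

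Of the 76 members 60 had a positive log2 fold change, and the share that was higher in every pair was larger among long genes. In all, 35 were higher at 40 min in all 4 pairs (46.1%, beside 28.2% of all genes tested), namely 9 of 41 under 10 kb, 15 of 22 between 10 and 30 kb, and 11 of 13 of at least 30 kb. The median log2 fold change of the members was 0.38, beside −0.09 over all genes. By span it was 0.16 under 10 kb, 0.63 between 10 and 30 kb and 0.86 above. With each library left out in turn the median of all members ranged over 0.18 to 0.70, and that under 10 kb over −0.23 to 0.55, with a negative sign without the WT UV 10 min (−0.14) or the KD UV 40 min library (−0.23), while the other classes kept 0.43 to 0.85 and 0.67 to 1.04. Of all genes in the same span classes, 14.7%, 29.8% and 33.1% were higher at 40 min in all 4 pairs. With the order of the deposited tables as a covariate edgeR called 22 members higher, 18 of them of at least 10 kb, beside 17% of all genes. For 40 over 10 min this fit is the same as one with the 4 matched pairs as a block. The order shares its signs with a difference of KD over WT that depends on UV, which the additive fit leaves in the spread.

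Without UV, the members of at least 30 kb had the largest median difference between 40 and 10 min of the 3 span classes. *MRPS9*, a small-subunit protein with a bacterial counterpart (chr2:105038069-105099960, 61.9 kb), was at 90.1 CPM at 40 min against 15.6 CPM at 10 min in KD cells, and 96.8 against 19.8 CPM in WT cells. Its log2 fold change without UV was 2.40 ± 0.40 (SE, 2 of 2 pairs, edgeR adjusted p = 0.0798). *MRPL1*, which forms the mobile stalk at the site where spent tRNA leaves the ribosome (chr4:77862830-77952785, 90.0 kb), was at 51.3 CPM at 40 min against 12.7 CPM at 10 min in KD cells, and 65.01 against 10.5 CPM in WT cells, a log2 fold change of 2.32 ± 0.40 (edgeR adjusted p = 0.0798). In both genes the 2 libraries at 40 min lay above the 2 at 10 min, although neither gene passed the threshold. With the matched pairs as a block, added after the data were seen, both passed it (edgeR adjusted p = 0.000864 for *MRPS9* and 0.000902 for *MRPL1*). *MRPS28*, of the small subunit, was at 97.7 CPM at 40 min against 21.1 CPM at 10 min in KD cells, and 131 against 34.2 CPM in WT cells, with a log2 fold change of 2.06 ± 0.43. *MRPL39*, a large-subunit protein related to tRNA synthetases, was at 45.6 CPM at 40 min against 13.6 CPM at 10 min in KD cells, and 47.5 against 15.6 CPM in WT cells, a log2 fold change of 1.67 ± 0.39. *MRPL40* and *MRPS22*, both mitochondria-specific, were lower at 40 min without UV, with log2 fold changes of −1.08 ± 0.44 and −0.76 ± 0.46, and the sign of *MRPS22* turned to 1.71 when its shortest transcript was counted. With the matched pairs as a block both were called lower (edgeR adjusted p = 0.0218 and 0.0369).

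Across the class, 8 of 13 members of at least 30 kb were higher at 40 min by 1 log2 unit or more in both pairs without UV (61.5%, beside 15.4% of all genes of that span), as did 5 of 22 members between 10 and 30 kb and 0 of 41 under 10 kb. The median log2 fold change without UV was 1.12 for the members of at least 30 kb, 0.58 between 10 and 30 kb and −0.30 under 10 kb, beside −0.11, −0.25 and −0.53 over all genes of these spans. Over the 76 members it was 0.19, beside −0.27 over all genes, and it changed sign to −0.01 when libraries were scaled by their totals, where the median of all genes was −0.50, and to −0.08 when the background density was subtracted. With each library left out in turn it ranged over −0.27 to 0.85. The median under 10 kb turned to 0.53 without the WT no UV 10 min and to 0.42 without the KD no UV 40 min library, that between 10 and 30 kb ranged over 0.19 to 1.19 and that of the long members over 0.82 to 1.63, and in each of these fits the longest class had the highest and the shortest the lowest median. No member was called without UV by edgeR, beside 0% of all genes. An unadjusted p under 0.05 was found in 15 members, beside 3597 of all 17782 genes, and DESeq2 called 11 (10.4% of all genes). Members were called when the KD no UV 40 min, the WT UV 10 min or the KD UV 10 min library was left out. These calls do not tell whether the members or all genes moved. With table order as a covariate, or the matched pairs as a block, edgeR called 31 members, 25 higher and 6 lower, beside 40.3% of all genes called in either direction. Across the 76 members, the Spearman correlation of the log2 ratio of 40 over 10 min with log2 span was 0.64 in the KD pair and 0.66 in the WT pair, given as a description since all points of a pair come from the same libraries.

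**Figure D2:**
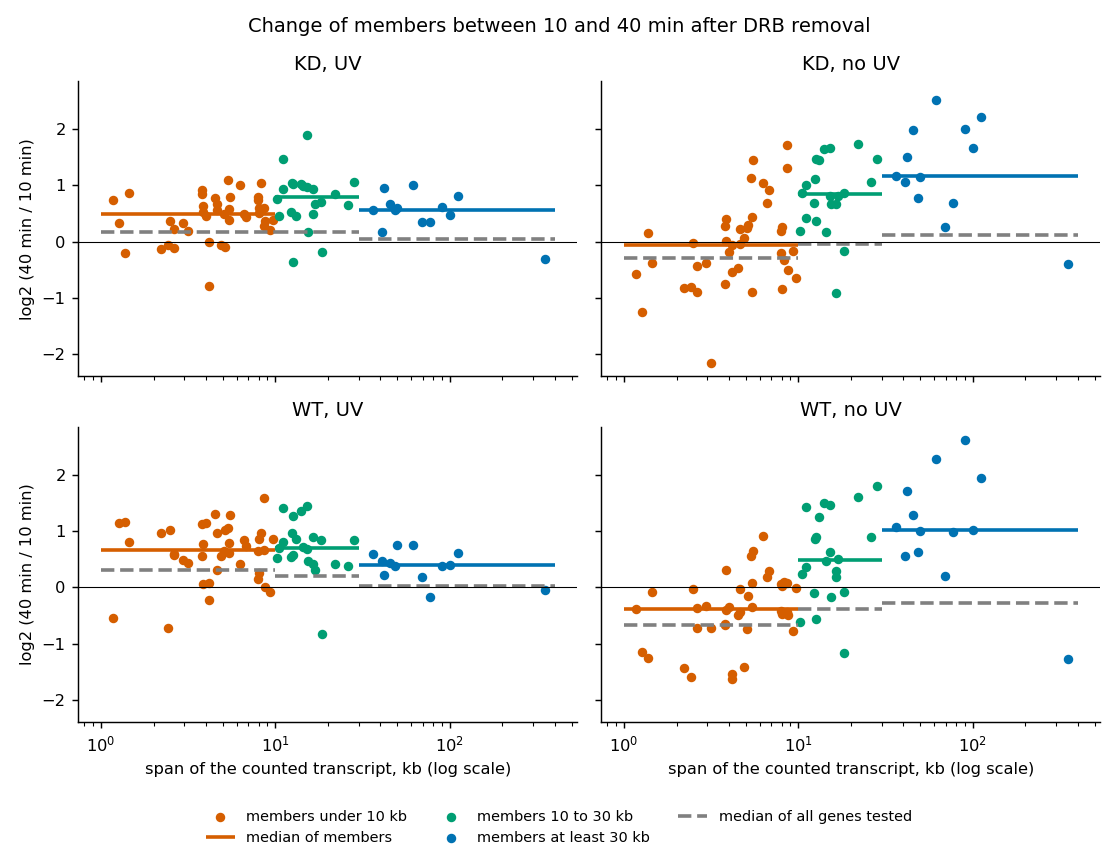
Log2 ratio of CPM at 40 min over CPM at 10 min after DRB removal for each of the 76 members (points) against the span of its counted transcript in kb on a log axis, in a panel for each kind of cell and UV treatment. Coloured lines are the medians of members in the 3 span classes and dashed grey lines those of all genes tested. Without UV the medians climb with span in both kinds of cells, and with UV they lie between 0.39 and 0.80.

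With UV, the order of the span classes rested on single libraries. *MRPS9* was at 34.2 CPM at 40 min against 16.9 CPM at 10 min in KD cells, and 25.6 against 15.1 CPM in WT cells. *MRPL1* was at 17.6 CPM at 40 min against 11.4 CPM at 10 min in KD cells, and 16.8 against 12.8 CPM in WT cells. *MRPS28* was at 57.1 CPM at 40 min against 32.6 CPM at 10 min in KD cells, and 42.9 against 27.99 CPM in WT cells. In each of these genes the 40 min levels with UV were lower than those without UV, in KD and in WT cells. The median log2 fold change with UV was 0.50 for members of at least 30 kb, 0.69 between 10 and 30 kb and 0.54 under 10 kb, beside 0.02, 0.17 and 0.23 over all genes of these spans. In the same order they were 0.34, 0.59 and 0.12 without the WT UV 10 min library, 0.25, 0.34 and −0.01 without the KD UV 40 min library, 0.78, 1.03 and 0.96 without the WT UV 40 min library and 0.81, 1.18 and 1.44 without the KD UV 10 min library, and the median of all members ranged over 0.18 to 1.18. The members with the smallest p were *MRPS21* (1.73 ± 0.47) and *MRPL50* (1.46 ± 0.46), a mitochondria-specific protein of the large subunit, among those higher at 40 min, and *MRPL30* (−0.59 ± 0.56) and *MRPL57* (−0.55 ± 0.78) among those lower. No member was called by edgeR with UV, beside 0% of all genes. An unadjusted p under 0.05 was found in 4 members, beside 626 of all 17782 genes, and DESeq2 called 0. With table order as a covariate, or the matched pairs as a block, edgeR called 1 member, *MRPS21*, beside 0.776% of all genes.

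The UV by time term is the log2 ratio of 40 over 10 min with UV minus that without UV. The sign of its median differed between span classes. Of the 13 members of at least 30 kb, 11 had a negative term in both KD and WT cells (84.6%, beside 36.5% of all genes of that span), and of the 41 under 10 kb, 28 had a positive one in both (68.3%, beside 61.9% of all genes of that span). The median term was −0.74 for the first, 0.14 between 10 and 30 kb (−0.08 when library sizes were scaled by RLE, relative log expression) and 0.71 for the last, beside 0.05, 0.32 and 0.67 over all genes. With each library left out in turn it ranged over −1.35 to −0.35 for the first, −0.45 to 0.54 between 10 and 30 kb and 0.03 (without the KD no UV 40 min library) to 1.44 for the last. *MRPL1* had a term of −1.82 ± 0.55 and *MRPS9* of −1.49 ± 0.54. On the other side stood *MRPL11*, which encodes a protein at the base of the stalk (1.64 ± 0.88), and *MRPS34* (1.81 ± 1.05). By edgeR no member was called for this term, beside 0% of all genes, with an adjusted p of 0.964 for each of these 4 members. An unadjusted p under 0.05 was found in 3 members, beside 472 of all 17782 genes, and DESeq2 called 0. The Spearman correlation of the term with log2 span over the 76 members was −0.59 in KD and −0.71 in WT cells, again a description only.

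The difference of KD over WT depended on UV in 16 members, 15 of them in 1 direction. The KD by UV term is the log2 ratio of KD over WT with UV minus that without UV, and by edgeR 15 members had a positive term, beside 5.93% of all genes tested, and 1 a negative term, beside 4.36%. The median term was 1.15, beside 0.14 over all genes, and 69 of 76 members had a positive term. An unadjusted p under 0.05 was found in 45 members, beside 6954 of all 17782 genes. Scaled by library totals the members' median was 0.96 and that of all genes −0.06, with 11 positive and 3 negative calls. In 62 of 76 members the term was positive at both 40 and 10 min (81.6%, beside 46.2% of all genes). This term has the same signs as the order of the deposited tables, so the libraries' other differences cannot be told apart from it. The call count was 0 when any one of the 4 KD libraries was left out or the background density was subtracted (median 1.08). It rose without the WT no UV 40 min library, which does not tell whether the members or all genes moved. DESeq2 called 38 members (28.8% of all genes). With the KD and WT libraries of each condition as a block, 46 were called, 44 positive and 2 negative (35.6% of all genes).

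Short genes made up most of these calls. Under 10 kb, 13 of 41 members had a positive and 1 a negative call and the median term was 1.69, whereas of all genes under 10 kb 12.2% had a positive call and 4.10% a negative one, with a median of 0.48. Between 10 and 30 kb 2 of 22 members were called, with a median of 1.00 (all genes of that span 7.68% positive, median 0.25). At 30 kb or more 0 of 13 were called by edgeR, with a median of 0.45 (all genes 1.98% positive, median −0.02), and DESeq2 called 1. With each library left out in turn the median ranged over 1.23 to 2.05 under 10 kb and over 0.27 to 0.84 at 30 kb or more. The calls took in 12 positive and 1 negative of 47 MRPL genes and 3 positive of 29 MRPS genes. Over the 76 members the Spearman correlation of the term with log2 span was −0.45 in the 40 min and −0.51 in the 10 min libraries, as a description.

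*MRPS24*, a small-subunit protein with a bacterial counterpart (chr7:43866558-43869517, 2.96 kb), was, with UV, at 12.02 CPM in KD cells against 8.05 CPM in WT cells at 40 min, and 9.49 CPM in KD cells against 5.74 CPM in WT cells at 10 min. In cells without UV *MRPS24* was at 2.88 CPM in KD cells against 11.01 CPM in WT cells at 40 min, and 3.77 CPM in KD cells against 13.8 CPM in WT cells at 10 min. KD was above WT in both pairs with UV and below WT in both pairs without UV, and the term was 2.53 ± 0.52 (SE, 2 of 2 pairs, edgeR adjusted p = 0.0392).

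*MRPL38*, a mitochondria-specific protein of the large subunit (chr17:75898643-75905413, 6.77 kb), was, with UV, at 16.2 CPM in KD cells against 12.2 CPM in WT cells at 40 min, and 11.9 CPM in KD cells against 7.24 CPM in WT cells at 10 min. Without UV it was at 6.01 CPM in KD cells against 14.6 CPM in WT cells at 40 min, and 3.13 CPM in KD cells against 11.97 CPM in WT cells at 10 min, and the term was 2.15 ± 0.48 (edgeR adjusted p = 0.0392). The KD UV libraries lay above, and the KD no UV libraries below, their WT counterparts. *MRPL51* was, with UV, at 10.6 CPM in KD cells against 11.1 CPM in WT cells at 40 min, and 12.2 CPM in KD cells against 4.86 CPM in WT cells at 10 min. In cells without UV *MRPL51* was at 2.79 CPM in KD cells against 9.35 CPM in WT cells at 40 min, and 2.49 CPM in KD cells against 22.4 CPM in WT cells at 10 min. Its term of 3.06 ± 0.69 was the largest among the called members (edgeR adjusted p = 0.0392), and the WT no UV 10 min library was the highest and the 2 KD no UV libraries the lowest.

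*MRPL37*, which is related to *MRPS30* and specific to mitochondrial ribosomes (chr1:54200167-54218383, 18.2 kb), was, with UV, at 38.7 CPM in KD cells against 25.7 CPM in WT cells at 40 min, and 23.7 CPM in KD cells against 14.2 CPM in WT cells at 10 min. Without UV it was at 18.3 CPM in KD cells against 33.8 CPM in WT cells at 40 min, and 9.94 CPM in KD cells against 35.7 CPM in WT cells at 10 min, with a term of 2.04 ± 0.47 (edgeR adjusted p = 0.0392). It is the longest of the called members. *MRPL20*, an early-assembling protein in bacteria, had a term of 1.97 ± 0.47 (edgeR adjusted p = 0.0402), and *MRPL24*, near the exit of the peptide tunnel, one of 2.08 ± 0.51 (edgeR adjusted p = 0.0404). The other 9 positive calls were *MRPL2*, *MRPL9*, *MRPL15*, *MRPL18*, *MRPL28*, *MRPL36*, *MRPS7* and *MRPS17*, which have bacterial counterparts, and the mitochondria-specific *MRPL55*, with terms of 1.73 to 2.57.

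The exception was *MRPL57*, a short mitochondria-specific protein of the large subunit (chr13:21176658-21179084, 2.43 kb). With UV it was at 5.17 CPM in KD cells against 7.82 CPM in WT cells at 40 min, and 5.42 CPM in KD cells against 13.1 CPM in WT cells at 10 min. In cells without UV *MRPL57* was at 7.58 CPM in KD cells against 1.52 CPM in WT cells at 40 min, and 13.3 CPM in KD cells against 4.86 CPM in WT cells at 10 min. KD was below WT in both pairs with UV and above it in both pairs without UV, and the term was −2.72 ± 0.58 (SE, 2 of 2 pairs, edgeR adjusted p = 0.0392).

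**Figure D3:**
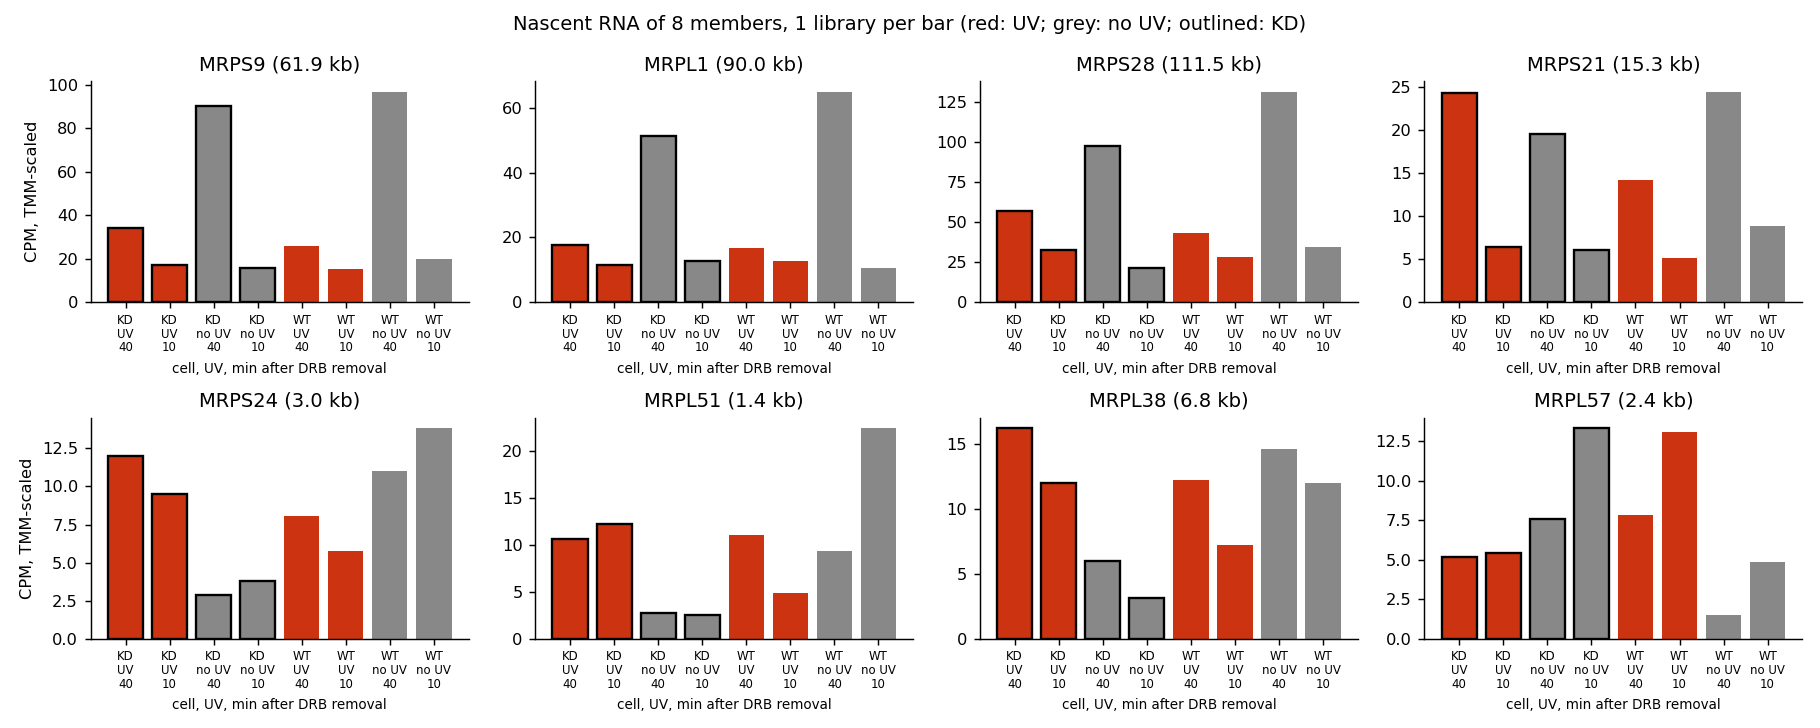
CPM, scaled by TMM, of 8 members in each of the 8 libraries (1 bar per library, red with UV, grey without UV, KD bars outlined in black). *MRPS9*, *MRPL1* and *MRPS28* are highest in the 2 libraries without UV at 40 min, *MRPS21* is high at 40 min in all 4 pairs, *MRPS24*, *MRPL51* and *MRPL38* are lowest in the 2 KD no UV libraries, and *MRPL57* is lowest in the 2 WT no UV libraries.

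**Figure D4:**
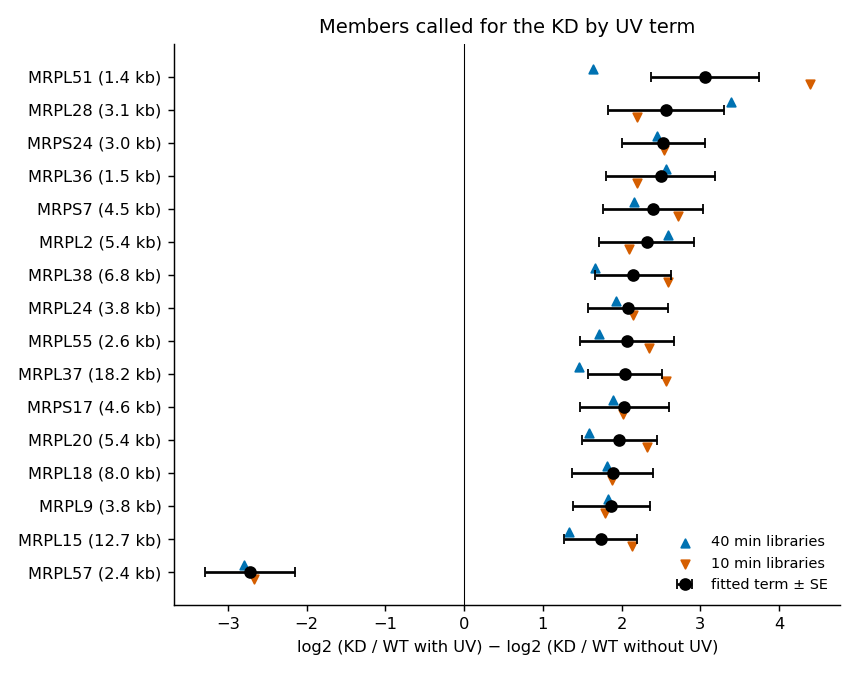
The 16 members called for the KD by UV term, with the fitted term ± SE (black) and the values of the 40 min (blue) and 10 min (orange) libraries on a log2 scale. In 15 members both times lie above 0, and in *MRPL57* both lie below 0.

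Without UV, 13 members were lower in KD than in WT, beside 6.3% of all genes with a lower call, and 3 were higher, beside 6.97%. The 6 lower members with the smallest adjusted p were *MRPL51* (−2.56 ± 0.50), *MRPS24* (−1.89 ± 0.38), *MRPL38* (−1.59 ± 0.35), *MRPL37* (−1.39 ± 0.34), *MRPL20* (−1.34 ± 0.34) and *MRPL24* (−1.43 ± 0.37), all log2 of KD over WT with edgeR adjusted p between 0.0334 and 0.0358. The other 7 were *MRPL2*, *MRPL9*, *MRPL52*, *MRPL55*, *MRPS7*, *MRPS17* and *MRPS34*. The 3 higher members were *MRPL57* (1.82 ± 0.42, edgeR adjusted p = 0.0335), *MRPL30* (1.32 ± 0.35, edgeR adjusted p = 0.0390) and *MRPL12* (1.36 ± 0.40, edgeR adjusted p = 0.0433).

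*MRPL12*, the member with the highest level per kb (chr17:81703367-81707517, 4.15 kb), was, without UV, at 146 CPM in KD cells against 32.7 CPM in WT cells at 40 min, and 152 CPM in KD cells against 95.1 CPM in WT cells at 10 min. With UV it was at 67.9 CPM in KD cells against 97.5 CPM in WT cells at 40 min, and 117 CPM in KD cells against 92.3 CPM in WT cells at 10 min. The WT no UV 40 min library was the lowest of the 8. *MRPL30*, a large-subunit protein with a bacterial counterpart (chr2:99181184-99199561, 18.4 kb), was, without UV, at 184 CPM in KD cells against 51.5 CPM in WT cells at 40 min, and 206 CPM in KD cells against 115 CPM in WT cells at 10 min. With UV it was at 121 CPM in KD cells against 118 CPM in WT cells at 40 min, and 137 CPM in KD cells against 209 CPM in WT cells at 10 min. Here too the WT no UV 40 min library was the lowest, and without that library none of the 3 higher calls was made, while members were still called lower.

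In 59 of 76 members KD was below WT at both 40 and 10 min without UV (77.6%, beside 44.6% of all genes), and the median log2 ratio was −0.65, beside −0.05 over all genes. Under 10 kb it was −0.98, beside −0.27 over all genes of that span, with 12 lower and 2 higher calls in 41 members. With each library left out in turn that median ranged over −1.42 to −0.52. DESeq2 called 26 members (28.5% of all genes), and 31 were called with the KD and WT libraries of each condition as a block (31.1% of all genes). No member was called by edgeR without the KD no UV 10 min or the KD no UV 40 min library, or after the background density was subtracted, where the median was −0.61.

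Marker lists of several cell types differed in this comparison too. The sum of the fibroblast markers was 2406 and 1538 CPM in the KD no UV libraries at 40 and 10 min against 4074 and 5526 CPM in the WT no UV libraries, and 3595 and 3471 CPM in the KD UV libraries against 3521 and 2541 CPM in the WT UV libraries. Without UV, 6 of the 10 were lower in KD at both times and 3 higher, and *COL1A2*, a collagen gene, was at 115 and 87.9 CPM in the KD no UV libraries against 43.0 and 102 CPM in the WT no UV libraries. The endothelial markers went the other way, with a sum of 305 and 210 CPM in the KD no UV libraries at 40 and 10 min against 61.5 and 163 CPM in the WT no UV libraries, and all 4 of them, like all 4 muscle markers, were higher in KD at both times. The part of these differences in those of the members was not tested.

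With UV, most members had the opposite order of KD and WT. No member was called by edgeR, beside 0.129% of all genes. An unadjusted p under 0.05 was found in 12 members, beside 771 of all 17782 genes, and DESeq2 called 0. The median log2 ratio of KD over WT was 0.51, beside 0.09 over all genes, and KD was above WT at both times in 58 of 76 members (76.3%, beside 43.4% of all genes). The smallest p values among the higher members were those of *MRPL15* (0.89 ± 0.32) and *MRPL16* (0.94 ± 0.35), both with bacterial counterparts in the core of the large subunit, and among the lower ones those of *MRPL57* (−0.90 ± 0.40) and *MRPL34* (−0.99 ± 0.55). In 51 members KD was above WT at both times with UV and below WT at both times without UV (67.1%, beside 34.6% of all genes).

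**Figure D5:**
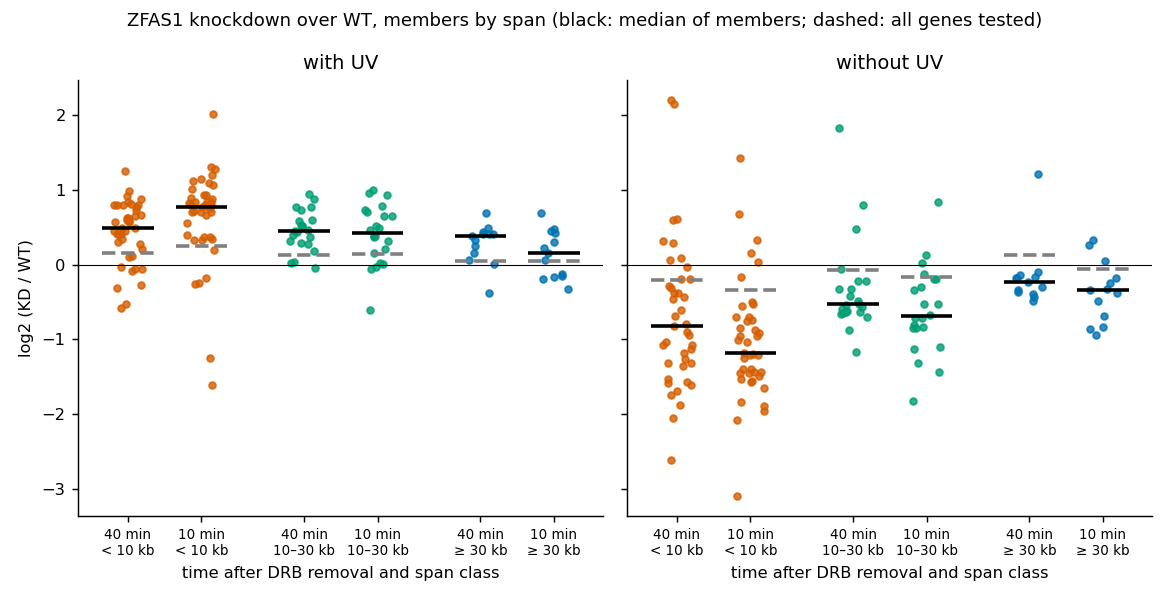
Log2 ratio of CPM in KD over WT for each of the 76 members (points), with UV on the left and without UV on the right, at 40 and 10 min after DRB removal and in 3 span classes. Black lines are medians of members and dashed grey lines medians of all genes tested in the class. With UV the members' medians lie above 0, and without UV below 0 and furthest below for genes under 10 kb.

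The same 8 libraries give the effect of UV within each kind of cell. In KD cells 35 members had an unadjusted p under 0.05 for UV over no UV, beside 3041 of all 17782 genes. None was called by edgeR, beside 0% of all genes, while DESeq2 called 13 higher (5.06% of all genes in either direction). *MRPL38* (1.66 ± 0.35, edgeR adjusted p = 0.0816) and *MRPS24* (1.69 ± 0.38) were the highest by p, and *MRPL57* (−0.89 ± 0.40) and *MRPL12* (−0.76 ± 0.39) the lowest. The median log2 ratio in KD cells was 0.64, and 1.20 under 10 kb, beside 0.03 over all genes and 0.42 over all genes under 10 kb. The median under 10 kb ranged over 0.77 to 1.36 with each library left out in turn. Members were called when any one of the WT libraries was left out, which does not tell whether the members or all genes moved. With matched libraries as a block 2 were called, among them *MRPL38* (1% of all genes).

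In WT cells the median log2 ratio of UV over no UV was −0.50, beside 0.02 over all genes. None was called by edgeR, beside 0.231% of all genes, and 18 had an unadjusted p under 0.05, beside 5312 of all 17782 genes. DESeq2 called 2 higher and 9 lower (17% of all genes in either direction). *MRPL57* (1.83 ± 0.42, edgeR adjusted p = 0.109) and *MRPL30* (1.00 ± 0.35) were the highest by p, and *MRPL27* (−1.37 ± 0.33) and *MRPL14* (−1.13 ± 0.34), both with bacterial counterparts, the lowest. Members were called without the WT no UV 10 min or the WT UV 10 min library, which does not tell whether the members or all genes moved. With matched libraries as a block 1 was called, *MRPL57* (0.894% of all genes). The median ranged over −0.72 to −0.28 with each library left out.

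Averaged over the other factors, UV and the knockdown gave no call, in an additive fit whose spread takes in the KD by UV term. For UV over no UV in both kinds of cells the median was 0.15, beside 0.12 over all genes, and edgeR called no member, beside 0% of all genes. Without adjustment 2 members had p under 0.05, beside 300 of all 17782 genes, and DESeq2 called 0. *MRPS9* (−0.91 ± 0.36) and *MRPL1* (−0.86 ± 0.39) were the lowest by p, and *MRPS34* (0.91 ± 0.57) and *MRPL40* (0.45 ± 0.34) the highest. For KD over WT the median was −0.06, beside 0.03 over all genes, with no call by edgeR, beside 0% of all genes, and 0 by DESeq2. An unadjusted p under 0.05 was found in 1 member, beside 83 of all 17782 genes. That member was *MRPL34* (−1.31 ± 0.45, lower in KD in 4 of 4 pairs), followed by *MRPL51* (−0.98 ± 0.60), while *MRPL12* (0.61 ± 0.39) and *MRPL30* (0.52 ± 0.38) were the highest. *MRPL34* was low throughout. With UV it was at 1.24 CPM in KD cells against 1.58 CPM in WT cells at 40 min, and 0.678 CPM in KD cells against 2.38 CPM in WT cells at 10 min. Without UV it was at 0.436 CPM in KD cells against 1.62 CPM in WT cells at 40 min, and 0.722 CPM in KD cells against 2.14 CPM in WT cells at 10 min. All 4 KD libraries lay below all 4 WT libraries, with 5 to 17 reads in KD and 21 to 33 reads in WT cells, and 2 members were lower in KD in all 4 pairs (2.63%, beside 1.82% of all genes).

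The KD by time term is the log2 ratio of 40 over 10 min in KD cells minus that in WT cells. Its median was 0.19 in the members and 0.19 over all genes, and −0.02 in the members under RLE scaling. By edgeR 0 members were called, beside 0% of all genes, and 0 by DESeq2. None had an unadjusted p under 0.05 (0 of 76), beside 11 of all 17782 genes. The 2 smallest p in each direction were those of *MRPS16* (0.86 ± 0.83), *MRPL30* (0.77 ± 0.80) among the positive terms, and *MRPL43* (−0.49 ± 0.82) and *MRPS11* (−0.25 ± 0.83) among the negative ones, and the sign of all but *MRPL43* turned when single libraries were left out.

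Sorted by place in the ribosome, the proteins of the stalk come first. *MRPL10*, which anchors the stalk, was, with UV, at 20.3 CPM in KD cells against 10.98 CPM in WT cells at 40 min, and 9.82 CPM in KD cells against 5.56 CPM in WT cells at 10 min. Without UV *MRPL10* was at 5.14 CPM in KD cells against 11.8 CPM in WT cells at 40 min, and 6.49 CPM in KD cells against 11.1 CPM in WT cells at 10 min. *MRPL11*, at the stalk base, was, with UV, at 10.6 CPM in KD cells against 7.52 CPM in WT cells at 40 min, and 5.84 CPM in KD cells against 3.35 CPM in WT cells at 10 min. Both were above WT in the 2 KD UV libraries and below WT in the 2 KD no UV libraries, with terms of 1.80 ± 0.55 and 1.87 ± 0.68 that were not called, while *MRPL12*, the stalk protein they carry, had a term of −1.48 ± 0.56, not called either.

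Proteins of the core and the exit of the large subunit come next. *MRPL3*, a core protein near the catalytic centre (40.8 kb), was, without UV, at 65.4 CPM at 40 min against 31.4 CPM at 10 min in KD cells, and 84.6 against 57.3 CPM in WT cells. With UV *MRPL3* was at 51.5 CPM at 40 min against 45.6 CPM at 10 min in KD cells, and 39.3 against 28.3 CPM in WT cells. *MRPL45*, which lines the tunnel exit and contacts the inner membrane (26.0 kb), was, without UV, at 11.1 CPM at 40 min against 5.21 CPM at 10 min in KD cells, and 16.2 against 8.66 CPM in WT cells. Both were higher at 40 min in all 4 pairs. *MRPL44*, related to a ribonuclease (10.3 kb), was, without UV, at 10.3 CPM at 40 min against 8.98 CPM at 10 min in KD cells, and 7.34 against 11.4 CPM in WT cells and had levels of 17.1 and 10.1 CPM in the KD UV libraries at 40 and 10 min. *MRPL39* (21.9 kb) was, with UV, at 27.5 CPM at 40 min against 15.2 CPM at 10 min in KD cells, and 21.2 against 15.8 CPM in WT cells. *MRPS30*, which sits in the large subunit despite its name, was, with UV, at 29.4 CPM at 40 min against 20.8 CPM at 10 min in KD cells, and 19.6 against 10.9 CPM in WT cells, and its KD by UV term was 1.20 ± 0.45, not called.

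Proteins of the head and the decoding centre of the small subunit follow. *MRPS12*, a protein of the decoding centre (2.47 kb), was, without UV, at 2.44 CPM in KD cells against 4.85 CPM in WT cells at 40 min, and 2.49 CPM in KD cells against 4.96 CPM in WT cells at 10 min. *MRPS7*, of the head of the small subunit, was, without UV, at 3.22 CPM in KD cells against 9.64 CPM in WT cells at 40 min, and 4.49 CPM in KD cells against 13.6 CPM in WT cells at 10 min. *MRPS2* was, without UV, at 4.01 CPM in KD cells against 6.56 CPM in WT cells at 40 min, and 4.57 CPM in KD cells against 8.37 CPM in WT cells at 10 min. In all 3 genes KD was below WT at both times without UV, and of their KD by UV terms, 1.69 ± 0.60, 2.40 ± 0.64 and 1.28 ± 0.59, that of *MRPS7* was called (edgeR adjusted p = 0.0410). *MRPS5*, at the mRNA entry, has a longer gene (36.4 kb) and was, without UV, at 35.03 CPM at 40 min against 15.6 CPM at 10 min in KD cells, and 45.9 against 21.8 CPM in WT cells.

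Of the small-subunit proteins specific to mitochondria, *MRPS27*, which has RNA-binding repeats, and *MRPS35* have long genes. *MRPS27* was, without UV, at 150.4 CPM at 40 min against 47.2 CPM at 10 min in KD cells, and 184 against 90.97 CPM in WT cells. *MRPS35* (45.5 kb) was, without UV, at 50.4 CPM at 40 min against 12.7 CPM at 10 min in KD cells, and 55.5 against 22.8 CPM in WT cells. In both genes the 2 libraries at 40 min lay above the 2 at 10 min without UV. With UV *MRPS27* was at 109.5 CPM at 40 min against 79.02 CPM at 10 min in KD cells, and 77.6 against 59.1 CPM in WT cells. *MRPS34* was, without UV, at 0.523 CPM in KD cells against 2.64 CPM in WT cells at 40 min, and 1.44 CPM in KD cells against 6.03 CPM in WT cells at 10 min, with 6 reads in the KD no UV 40 min library. *MRPS22* was, without UV, at 85.9 CPM at 40 min against 113 CPM at 10 min in KD cells, and 36.9 against 89.3 CPM in WT cells, over its counted span of 351 kb. Its transcript of 13.0 kb held 119 reads at 40 min against 58 reads at 10 min in KD cells without UV, and 225 against 92 reads in WT cells, so the direction of *MRPS22* depended on the transcript.

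The 3 paralogs related to a single bacterial protein differed in level. *MRPS18A*, whose protein is in the large subunit, was, with UV, at 20.8 CPM in KD cells against 14.4 CPM in WT cells at 40 min, and 10.8 CPM in KD cells against 10.7 CPM in WT cells at 10 min, and *MRPS18C* at 12.5 CPM in KD cells against 7.07 CPM in WT cells at 40 min, and 6.10 CPM in KD cells against 5.30 CPM in WT cells at 10 min. *MRPS18B* stayed between 0.321 and 1.85 CPM in the 8 libraries. Their KD by UV terms were 0.80 ± 0.56, 0.61 ± 0.50 and 1.45 ± 0.87, none of them called.

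Genes of the same pathway were described in the same way. For KD by UV 1 of 5 other mitoribosomal protein genes had a positive call (median term 1.49), 3 of 16 mitochondrial translation factors (0.79), 2 of 19 mitochondrial aminoacyl-tRNA synthetases (0.75) and 2 of 19 mitoribosome assembly genes (0.96), with no negative call in these lists by edgeR, while 5.93% of all genes had a positive call and 4.36% a negative one. The cytosolic ribosomal protein genes, at a median span of 5.01 kb, had 36 positive calls of 83 (median 1.69), and the nuclear genes for oxidative phosphorylation 27 of 75 (1.42), again with no negative call, beside 12.2% positive calls in all genes under 10 kb. For KD over WT without UV the lower calls were 1 of 5, 3 of 16, 4 of 19 and 1 of 19 in the first 4 lists, 33 of 83 in the cytosolic ribosomal protein genes and 23 of 75 in the oxidative phosphorylation genes, beside 6.3% of all genes and 12.7% of those under 10 kb. The assembly genes, the cytosolic ribosomal protein genes and the oxidative phosphorylation genes had 1 higher call each and the other 3 lists none, beside 6.97% of all genes. Between 40 and 10 min without UV the medians were −0.04, 0.77, 0.43 and 0.81 in the first 4 lists, −0.58 in the cytosolic ribosomal protein genes and −0.13 in the oxidative phosphorylation genes.

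Reads could be split into a proximal part and a distal part of at least 10 kb for *MRPL42* and *MRPS23*, and in *MRPS23* the proximal part held 1 to 28 reads, too few to describe. *MRPL42*, a mitochondria-specific protein (48.7 kb), has a shorter counted transcript of 35.1 kb from the same start, and the ratio of the read density in the last 13.6 kb to that in the first part was 0.721 at 40 min against 2.96 at 10 min in KD cells without UV, and 1.03 against 1.62 in WT cells. With UV the ratio was 1.66 against 2.01 in KD cells and 1.48 against 2.56 in WT cells. In all 4 pairs the distal share was smaller at 40 min, and there was 1 library per value, so this is a description.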

How the data were processed

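The 8 GRO-seq libraries measured nascent RNA in 1 library per group, from a strand-specific library preparation. According to the submitters' processing notes the authors used BWA 0.5.9, SAMtools and the build hg38, and they deposited unnormalized counts of reads per transcript. Neither the counting tool, nor whether it used strand, nor the annotation release is stated in the sources used here. No deposited column was left unused. In 32318 nested pairs of transcripts of the same gene the longer had fewer reads in 0, so counts cover introns, and every span was at least 1000 bp.

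The members and all gene lists were chosen with earlier results of these data known. Each gene was represented by its transcript of the largest span. Groups were taken from the labels. Libraries held 10.2 to 21.1 M reads over genes, and a gene of few reads has a correspondingly wide error. The quasi-likelihood F-test of edgeR 4.0.16 (R 4.3.3) was run with TMM scaling on the genes kept by filterByExpr (minimum count 10, minimum total 15), with Benjamini-Hochberg adjustment over all 17782 genes and a threshold of 0.05. KD over WT, UV over no UV and 40 over 10 min were additive terms over all 8 libraries, with 4 residual degrees of freedom. Each term of 2 factors was fitted with the other factor as a covariate, with 3. The spread in the additive fit therefore takes in every term of 2 factors, KD by UV included. The contrasts of time with and without UV were added after the values were seen. Errors are standard errors on a log2 scale, taken from the fitted log2 fold change and its F statistic. A prior count of 2 was set only for the log2 CPM behind the differences of matched pairs. Levels are CPM, counts per M reads, scaled by TMM, set against span in kb where genes are compared.

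The members named were, per comparison, up to 6 called members per direction with the smallest adjusted p and 1 sign in all matched pairs, or the 2 smallest p per direction where none was called. A set chosen by role, the 5 highest and 3 lowest per kb and the 3 largest and 3 smallest spans were named too, and *MRPL42*, *MRPS23* and the remaining called members after their values were seen. Alternatives were RLE scaling, library totals, no filter, DESeq2 1.42.0, the shortest transcript, table order as a covariate and leaving out each library. TMM after the filter, subtraction of the background density and a block of libraries matched on the other 2 factors were added after the data were seen. The fits were tested on simulated data with known changes. Promoter windows came from RefSeq. Figures were drawn with matplotlib 3.10.9 in Python 3.11.15.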

Additional observations from a re-analysis of the deposited data

Results flagged for a closer look

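For 7 members the log2 ratio of KD over WT differed between cells with and without UV by the KD by UV term of edgeR's quasi-likelihood test. With UV minus without UV, it was 2.53 for *MRPS24*, 2.15 for *MRPL38*, 3.06 for *MRPL51*, 2.04 for *MRPL37*, 1.97 for *MRPL20* and 2.08 for *MRPL24*, and −2.72 for *MRPL57*, the one of these in which KD lay below WT with UV and above it without UV. The term shares its signs with the order of the deposited tables, and the calls are lost when any one of the 4 KD libraries is left out.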

How the results depend on the processing

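The count of called members depended on the settings, while most directions did not. Where a count stands without the share of all genes called in the same fit, it does not tell whether the members or all genes moved. Of the values of named members 403 of 448 kept direction and side of the threshold under other settings, and 341 of 424 when a library was left out. Most of these values were of members not called in the main fit, and the calls themselves were less stable. Of the 8 fits that each left out a library, 3 kept the call of *MRPS21* for 40 over 10 min. Each named call was kept in 3 or 4 of the 8 for KD by UV, and in 3 to 6 for KD over WT without UV. For 40 over 10 min 1 member was called, against 4 with RLE scaling, 0 with library totals, 2 without the filter, 0 with TMM after the filter, 13 with DESeq2, 6 with the shortest transcript, 0 with the background subtracted and 22 with table order as a covariate. For KD by UV 16 were called, against 38 with RLE scaling, 38 with DESeq2 and 0 with the background subtracted, where the median was 1.08. Of all genes 10.3% were called for this term by edgeR and 28.8% by DESeq2. For KD over WT without UV 16 were called, against 28 with RLE scaling, 26 with DESeq2 and 0 with the background subtracted. Here edgeR called 13.3% and DESeq2 28.5% of all genes. Where 0 were called, UV over no UV in WT had 1 with RLE scaling and 11 with DESeq2, UV over no UV in KD 13 with DESeq2, 40 over 10 min without UV 3 with RLE scaling, 11 with DESeq2, 13 with the shortest transcript and 31 with table order as a covariate, and 40 over 10 min with UV 1 with table order as a covariate. Leaving out each library gave 0 to 10 called members for 40 over 10 min, 0 to 33 for KD by UV, 0 to 19 for KD over WT without UV, 0 to 12 and 0 to 19 for UV over no UV in WT and in KD, and 0 to 15 for 40 over 10 min without UV. The log2 fold change without UV of *MRPS22* at 40 over 10 min turned to 1.71 with the shortest transcript. With single libraries left out the KD by time term ranged over −0.20 to 1.52 for *MRPS16*, −0.11 to 1.56 for *MRPL30* and −0.87 to 0.70 for *MRPS11*, and the log2 fold change of 40 over 10 min with UV over −1.20 to 0.31 for *MRPL30* and −1.48 to 0.97 for *MRPL57*. The causes were not tested. Table order could not be fitted with the KD by UV term, whose signs it shares, and a background from silent olfactory receptor genes was not run, since 1 such gene was counted. With libraries matched on the other 2 factors as a block, added after the data were seen, 22 members were called for 40 over 10 min, 46 for KD by UV, 31 for KD over WT without UV, 1 and 2 for UV over no UV in WT and in KD, 31 for 40 over 10 min without UV and 1 with UV, and the calls for the other comparisons stayed at 0. Replicate numbers pair nothing, since each group has 1 library. Depth limits the lowest members most, with counts down to 4 reads.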
